A study of Homo sapiens with 12 samples.

Results

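The genes described here encode 9 enzymes that make serine, asparagine and proline or pass the serine carbon into the mitochondrial folate cycle. They are PHGDH, PSAT1 and PSPH of serine synthesis, SHMT2, MTHFD2 and ALDH1L2 of mitochondrial one-carbon metabolism, ASNS of asparagine synthesis, and ALDH18A1 and PYCR1 of proline synthesis. They were chosen by pathway, but with earlier results of these data known. The deposited table holds 58676 genes, of which 12194 had a mean FPKM of at least 1 over all libraries and were tested, and 9 of the 9 enzyme genes were among those. FPKM is the number of fragments per kilobase of gene, scaled to the assigned reads of the library, so levels can be compared between genes.

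RNA was sequenced from A549 cells, a long-established lung carcinoma line of human origin. There were 3 sublines: 1 labelled Control1, called the control line, and 2 with a knockout of NFE2L1, labelled NFE2L1 KO1 and NFE2L1 KO2. Each received DMSO vehicle or 200 nM of bortezomib, which inhibits the proteasome, for 4 h, and each of the 6 groups had 2 libraries. The titles of 6 libraries end in R2, those of the other KO libraries end in R1, and 2 control libraries carry no suffix. How each line was derived, whether it is 1 clone, and whether the libraries of a group came from separate cultures are not given in the sources used here. The p-values therefore measure the spread between these libraries, which may be technical. In RNA from a whole culture, a change in every cell and a change in a share of the cells cannot be told apart.

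Serine is made from the glycolytic intermediate 3-phosphoglycerate. PHGDH oxidises it, PSAT1 transfers an amino group from glutamate, and PSPH removes the phosphate. In mitochondria SHMT2 splits serine into glycine and a folate-bound carbon unit, MTHFD2 oxidises that unit, and ALDH1L2 releases it as CO2 with formation of NADPH. ASNS makes asparagine from aspartate and glutamine, while ALDH18A1 and PYCR1 catalyse the first and the last step from glutamate to proline. Most of these genes are known targets of ATF4, the transcription factor of the integrated stress response, which is translated when amino acids run short or unfolded proteins accumulate. Inhibiting the proteasome is a known trigger of that response, and lung carcinoma cells differ widely in how much of the serine pathway they express.

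The libraries held 13211608 to 23819258 reads assigned to genes. NFE2L1, the targeted gene, was at 0.098 to 0.256 times the control level in the 4 vehicle libraries of the KO lines, each compared with the control library of its suffix class (R2 with R2, R1 with unnumbered). Mitochondrially encoded genes took 12.3% to 19.3% of the reads in R2 libraries and 5.44% to 6.8% in the others. The epithelial markers KRT8, KRT18, CDH1 and EPCAM, and the enzyme genes AKR1B10 and NQO1, listed for this carcinoma line, reached an FPKM of at least 1 in every library. CDH1 (1.42 to 9.53) and EPCAM (1.25 to 10.6) were far below KRT8 (126 to 703) and KRT18 (112 to 586). The leukocyte, endothelial and fibroblast markers PTPRC, CD3E, PECAM1, CDH5 and DCN stayed at 0 to 0.2, while the collagen gene COL1A1 was at 1.42 to 23.3 and higher with bortezomib in 6 of 6 pairs of libraries. Because same-suffix libraries deviated together, a limma fit with the replicate suffix as a block is given beside the fit without it.

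With bortezomib the estimates for the mean of the lines were higher for the serine and folate enzymes, ASNS and PYCR1, and lower for ALDH18A1. Most of the 9 genes passed the threshold only with the replicate block. Averaged over the 3 lines and with the replicate block, 8 of the 9 genes rose and 1 fell (limma, adjusted p under 0.05), where 54.9% of all tested genes were called. Without the block 3 of the 9 were called, PHGDH, MTHFD2 and ASNS, all higher, where 11.6% of all tested genes were called. ASNS, at group means of 0.403 to 0.623 in vehicle and 1.56 to 2.13 with bortezomib, passed the FPKM filter only through the bortezomib libraries. Its calls, in these counts and those below, therefore support nothing. The median log2 fold change of the 9 genes on the log2(FPKM + 1) scale was 0.87, and that of all tested genes was -0.01. In single lines without the block, limma called 0 of the 9 genes in each. Of all tested genes 0.467% (control line), 0.238% (KO1) and 0.32% (KO2) were called by that fit. At an unadjusted p under 0.05 the count was 2 of the 9 in each line, and limma voom on reads without the block also called 0. The block gave 7 of 9 in the control line (6 higher, 1 lower), where 32.4% of genes were called. In KO1 (27.7% of genes) and KO2 (27.0%) it gave 7 of 9, all higher.

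The 3 calls without the block lay close to the threshold. With each of the 12 libraries left out in turn, the call of PHGDH was lost in 11 cases, all but the unnumbered control vehicle library (adjusted p 0.0164 to 0.117). That of MTHFD2 was lost in 6, namely without any 1 of the R2 vehicle or of the R1 and unnumbered bortezomib libraries (0.0168 to 0.0752). The call of ASNS was kept only without the unnumbered control bortezomib, the KO2 R2 vehicle or the KO2 R1 bortezomib library, and lost in the other 9 cases (0.0407 to 0.112). After rescaling every library to a common sum, PHGDH (adjusted p = 0.0923) and MTHFD2 (0.0515) were not called. Leaving out mitochondrial genes ended the call of ASNS (0.0585), and testing every gene ended all 3. Other genes of the 9 were gained: without mitochondrial genes 3 were called in total, where 701 of 12178 genes were higher and 849 lower. With quantile normalization 4 were called, where 832 of 12194 genes were higher and 880 lower.

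**Figure D1:**
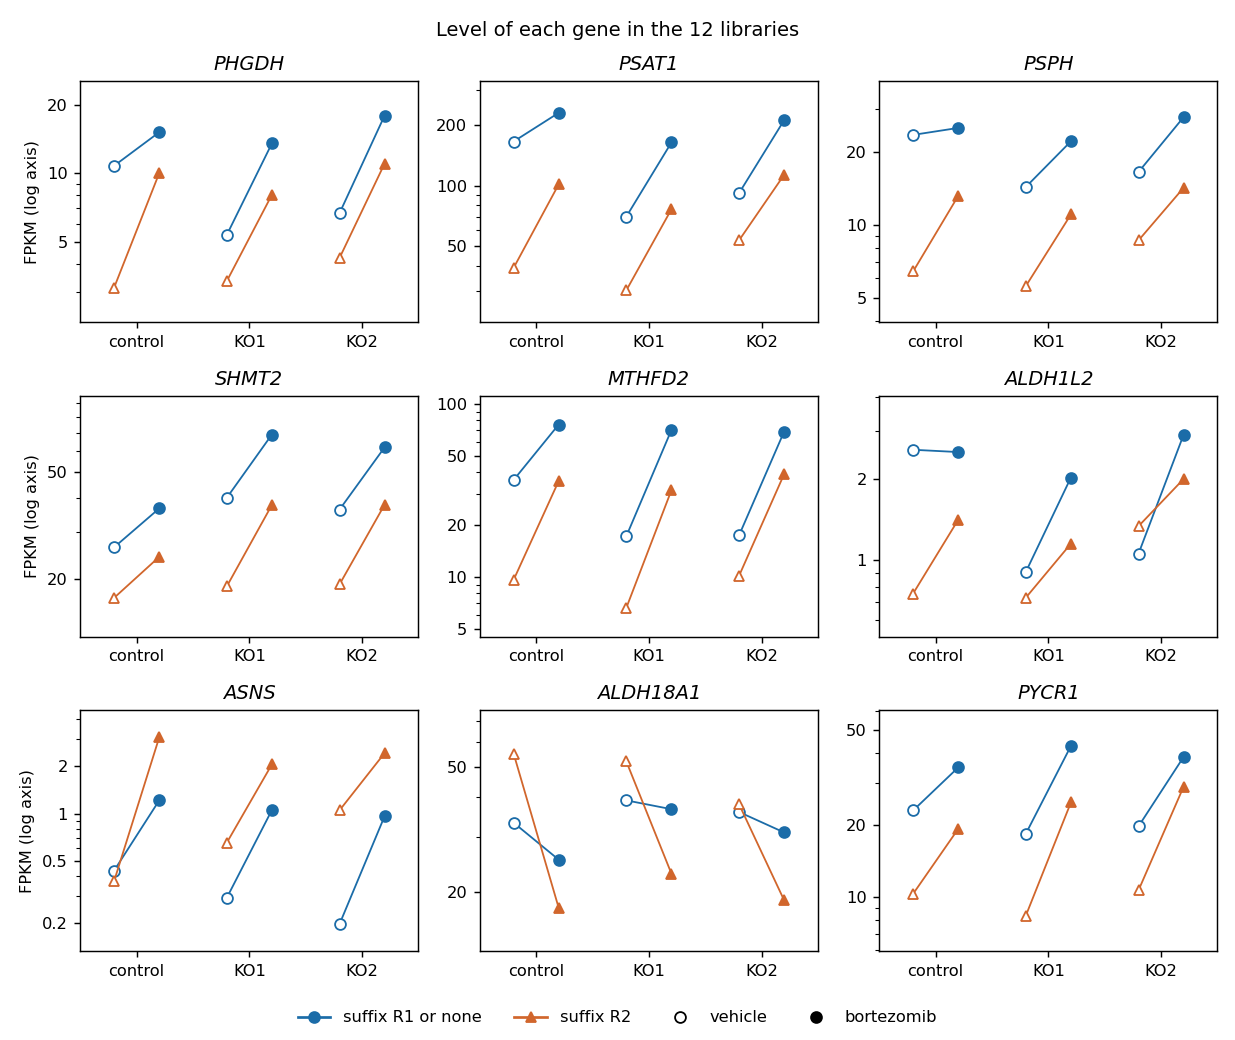
FPKM of each gene (log axis) in the 12 libraries, by line, with lines joining the vehicle (open) and bortezomib (filled) library of the same suffix class; blue circles are R1 or unnumbered libraries and orange triangles are R2. Joined lines rise in 6 of 6 pairs for 7 genes and in 5 of 6 for ALDH1L2, and fall in 6 of 6 for ALDH18A1.

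Paired by line and suffix class, 7 of the genes were higher with bortezomib in 6 of 6 pairs, ALDH1L2 was higher in 5 of 6, and ALDH18A1 was lower in 6 of 6. Of all tested genes 48.5% moved in 1 direction in all 6 pairs, so a shared direction alone was common. Sizes are given as a description, since the ranges over pairs overlapped for most of the genes that rose and no test between genes was made. The median ratio of bortezomib to vehicle FPKM was 3.93 for MTHFD2, 3.39 for ASNS, 2.56 for PHGDH, 2.32 for PSAT1 and 2.14 for PYCR1. It was 1.73 for ALDH1L2, 1.71 for SHMT2, 1.67 for PSPH and 0.628 for ALDH18A1.

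The levels spanned a wide range. In vehicle the median FPKM over the 6 libraries was 61.9 for PSAT1, 38.6 for ALDH18A1, 22.7 for SHMT2, 14.6 for PYCR1, 13.6 for MTHFD2, 11.4 for PSPH, 4.8 for PHGDH, 0.982 for ALDH1L2 and 0.403 for ASNS. Neighbours in this order overlapped in their ranges over the vehicle libraries, except PHGDH (3.14 to 10.8) and ALDH1L2 (0.728 to 2.56). With bortezomib MTHFD2, at a median of 54.1, stood second to PSAT1 at 138.9, and ALDH18A1 was the fifth at 24.1. ASNS remained the lowest of the 9, with 18 to 90 reads per vehicle library and 62 to 256 per bortezomib library.

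PHGDH (ENSG00000092621, chromosome 1, 119659798 to 119744215, plus strand), the first and rate-limiting enzyme of serine synthesis, rose with bortezomib. In the control line its FPKM was 10.8 and 3.14 in the unnumbered and R2 vehicle libraries and 15.1 and 10.0 in the bortezomib libraries. In KO1 it was 5.36 (R1) and 3.35 (R2) in vehicle and 13.5 and 8.04 with bortezomib. In KO2 it was 6.67 and 4.24 in vehicle and 17.9 and 11 with bortezomib. The groups did not overlap in either KO line. In the control line the unnumbered vehicle library was above the R2 bortezomib library. The log2 fold change was 1.10 for the mean of the lines (limma, SE 0.30, adjusted p = 0.042 without the block and 6.9e-05 with it). By line it was 0.93 (control), 1.12 (KO1) and 1.25 (KO2), and with the block each passed the threshold (adjusted p 0.0081, 0.0043 and 0.0026).

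PSAT1 (ENSG00000135069, chromosome 9, 78297143 to 78330093, plus strand), the aminotransferase that follows, had the highest level of the 9 genes in 10 of the 12 libraries. Its FPKM in the control line was 166 and 39.1 in vehicle and 231 and 102 with bortezomib, in the order unnumbered then R2. In KO1 (R1, then R2) it was 70.3 and 30.2 in vehicle and 164 and 76.5 with bortezomib, and in KO2 it was 92.0 and 53.6 against 212 and 113. The R2 library was below its partner in all 6 groups, by 1.20 on the log2 scale on average, which is as large as the response. The log2 fold change of 1.10 for the mean of the lines passed the threshold with the block (limma, SE 0.12, adjusted p = 9.3e-05) and not without it (SE 0.46, adjusted p = 0.16). The control line gave 0.91, KO1 1.26 and KO2 1.13, each past the threshold with the block.

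PSPH (ENSG00000146733, chromosome 7, 56011051 to 56051604, minus strand), the phosphatase of the last step, had the smallest log2 fold change of the serine enzymes, with no test of that difference. Its FPKM was 5.58 to 23.4 (median 11.4) over the 6 vehicle libraries and 11 to 27.8 (median 18.1) over the 6 bortezomib libraries, so the treatments overlapped. The ratio within pairs was 1.07 in the unnumbered control pair and 1.54 to 2.05 in the other 5. The log2 fold change was 0.64 for the mean of the lines (limma, adjusted p = 0.34 without the block and 0.0012 with it). With the block it passed in KO1 (0.73, adjusted p = 0.024) and KO2 (0.69, adjusted p = 0.031) and missed in the control line (0.51, adjusted p = 0.075). PHGDH, PSAT1 and PSPH varied together: over the 12 libraries, each centred on its suffix class, Pearson's r was 0.97 for PHGDH with PSAT1, 0.97 for PHGDH with PSPH and 0.98 for PSAT1 with PSPH. These libraries share the bortezomib contrast, so the values describe that contrast as well.

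MTHFD2 (ENSG00000065911, chromosome 2, 74198562 to 74217565, plus strand), the mitochondrial methylenetetrahydrofolate dehydrogenase, had the largest log2 fold change of the 9 genes on the log2(FPKM + 1) scale, which shrinks the change of ASNS. In the control line its FPKM was 36.2 and 9.59 in vehicle and 75.8 and 35.7 with bortezomib (unnumbered, then R2). In KO1 (R1, then R2) it was 17.1 and 6.6 in vehicle and 70.4 and 31.6 with bortezomib. In KO2 it was 17.3 and 10.1 in vehicle and 69.0 and 39.1 with bortezomib. The bortezomib libraries thus ran from 31.6 to 75.8, and only the unnumbered control vehicle library, at 36.2, reached into that range. For MTHFD2 the log2 fold change was 1.78 for the mean of the lines (limma, SE 0.42, adjusted p = 0.025 without the block, 5.9e-06 with it). The control line gave 1.42, KO1 2.04 and KO2 1.89, and with the block each passed the threshold (adjusted p 0.0014, 0.00036 and 0.00042). Of its exon bases 33.2% are shared with genes on the opposite strand, both at a mean FPKM under 0.1 (AC006030.1 at 0.0105, SLC4A5 at 0.0352).

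SHMT2 (ENSG00000182199, chromosome 12, 57229327 to 57234935, plus strand), the mitochondrial serine hydroxymethyltransferase, rose by less. Control libraries had an FPKM of 26.3 and 17.1 in vehicle and 36.6 and 24.2 with bortezomib (unnumbered, then R2). In KO1 (R1, then R2) it was 40.1 and 18.8 in vehicle and 68.9 and 37.7 with bortezomib. In KO2 it was 36.3 and 19.1 in vehicle and 61.7 and 37.8 with bortezomib. Both bortezomib libraries of KO2 were above both its vehicle libraries, while the groups overlapped in the control line and in KO1. Log2 fold changes by line were 0.47 (control), 0.87 (KO1) and 0.85 (KO2), all past the threshold with the block (limma, adjusted p 0.031, 0.0029 and 0.0031). For the mean of the lines it was 0.73 (adjusted p = 9.7e-05 with the block, 0.17 without).

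ALDH1L2 (ENSG00000136010, chromosome 12, 105019784 to 105084577, minus strand), the mitochondrial formyltetrahydrofolate dehydrogenase, was expressed at a low level. Its FPKM was 0.728 to 2.56 in vehicle (median 0.982) and 1.15 to 2.91 with bortezomib (median 2.01), so the treatments overlapped. The pair of unnumbered control libraries was the only one of 54 pairs over the 9 genes in which a gene went against the direction of its mean, with a ratio of 0.981. For ALDH1L2 the log2 fold change was 0.45 for the mean of the lines (limma, adjusted p = 0.21 without the block, 0.011 with it). With the block it passed in KO2 (0.64, adjusted p = 0.047) and in neither other line, and KO2 was not tested against those lines.

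Some of these genes have paralogues that catalyse related reactions, and of the 4 described here that were tested, 3 fell and 1 rose with the block. SHMT1 and MTHFD1 are the cytosolic counterparts of SHMT2 and MTHFD2. With the block both fell in the mean of the lines, SHMT1 by 0.59 (limma, adjusted p = 0.00087) and MTHFD1 by 0.53 (adjusted p = 0.00091) on the log2 scale. Neither passed without it (adjusted p 0.2 and 0.24). MTHFD1L, the mitochondrial formate-releasing synthetase, rose by the same test (0.76, adjusted p = 5.1e-05, 0.15 without the block). PYCRL, the cytosolic pyrroline carboxylate reductase now called PYCR3, fell (-0.50, adjusted p = 0.0023, 0.16 without the block). MTHFD2L and ALDH1L1 were below the FPKM filter.

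The ratio of a gene to its paralogue within 1 library does not depend on that library's depth. SHMT2 was 2.37 to 3.64 times SHMT1 in vehicle and 6.94 to 10.6 times with bortezomib. MTHFD2 was 0.654 to 1.85 times MTHFD1 in vehicle and 3.64 to 6.25 times with bortezomib. With bortezomib the mitochondrial gene exceeded the cytosolic one in all 6 libraries. The change of the log2 ratio was 1.43 ± 0.188 (SD over 6 pairs) for SHMT2 with SHMT1 and 2.44 ± 0.354 for MTHFD2 with MTHFD1. For PYCR1 it was 1.67 ± 0.189 against PYCRL. Each ratio was higher with bortezomib in 6 of 6 pairs. The ratios were formed after the separate changes had been seen, and are given as a description.

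**Figure D2:**
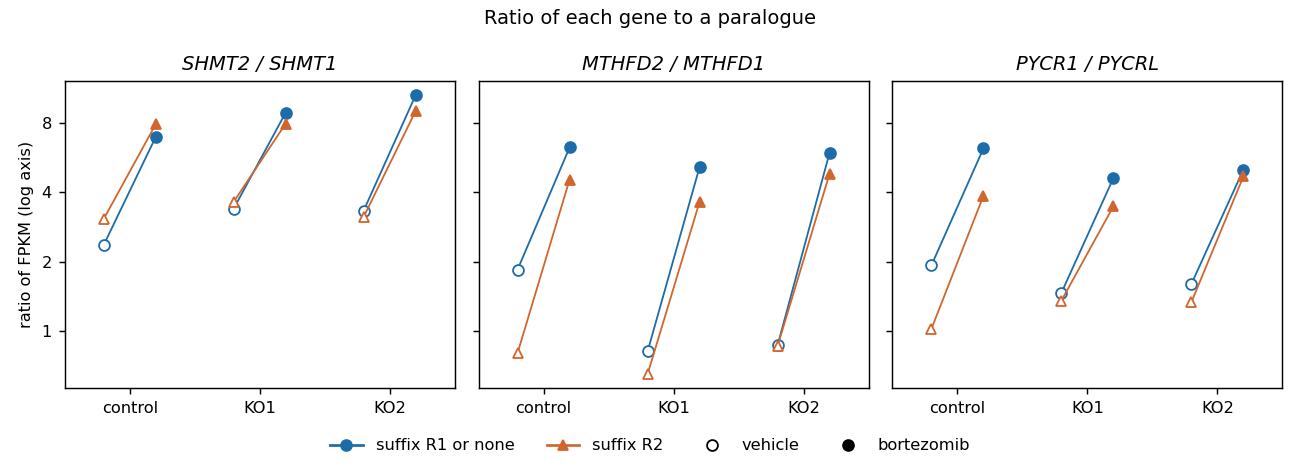
FPKM of SHMT2, MTHFD2 and PYCR1 divided by that of a paralogue in the same library (log axis), by line; open symbols are vehicle, filled are bortezomib, and lines join libraries of 1 line and suffix class. Every joined line rises, and the ranges with vehicle and bortezomib do not overlap for any of the 3 ratios.

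ASNS (ENSG00000070669, chromosome 7, 97852118 to 97872542, minus strand), asparagine synthetase, had the widest range of ratios and the fewest reads. In the control line its FPKM was 0.433 (unnumbered) and 0.372 (R2) in vehicle and 1.21 and 3.05 with bortezomib. In KO1 (R1, then R2) it was 0.291 and 0.653 in vehicle and 1.05 and 2.06 with bortezomib. In KO2 it was 0.198 and 1.05 in vehicle and 0.963 and 2.43 with bortezomib. The groups did not overlap in the control line and in KO1. In KO2 the R2 vehicle library was above the R1 bortezomib library. The R2 library of ASNS was above its partner in 5 of the 6 groups and below it in control vehicle, a mean difference of 0.55 on the log2(FPKM + 1) scale, where the other 8 genes averaged lower in R2. Its ratios of bortezomib to vehicle ran from 2.32 to 8.2.

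The log2 fold change of ASNS was 0.87 for the mean of the lines (limma, SE 0.24, adjusted p = 0.044 without the block, 0.00074 with it). Its mean level passed the FPKM filter only through the bortezomib libraries, and with every gene tested the adjusted p was 0.109 without the block. The pseudocount of 1 shrinks a change at this level: with 0.1 the log2 fold change was 1.68. With the block ASNS passed in the control line (1.09, adjusted p = 0.009) and in KO1 (0.78, adjusted p = 0.04) and missed in KO2 (0.73, adjusted p = 0.052). Of its exon bases 44.6% are shared on the same strand with AC079781.5, which had a mean FPKM of 0.0123. Whether reads from shared bases were counted is not given in the sources used here, so the level of ASNS may be understated.

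ASNS is shown with part of its promoter because its amino acid response is known to run through a pair of short elements, the C/EBP-ATF composite element and a second element downstream of it. In the RefSeq promoter windows (GRCh38.p14, 250 bases before to 50 after a start site), 5 of the 9 genes had a window: PHGDH, PSAT1, MTHFD2, ASNS and ALDH18A1. The start site of the PHGDH window lies 52136 bases downstream of the deposited start of the gene. ASNS also had a window at the start site 97872165, which held no match to any element searched. Positions in ASNS below refer to the start site 97872408. The composite element was searched as TGATGNAAN and the second as GTTACA, on both strands. The first was found in ASNS alone among the 5, starting 68 bases before the start site, and in 3.61% of all 35116 windows. The second was taken from what is known of the ASNS promoter, so its match there was set in advance. The first is a known element of that promoter too, so neither match in ASNS is support. The second starts 48 bases before the start site, and was found in none of the others of the 5 and in 6.66% of all windows. The stretch that holds both lies at chr7:97872451-97872476 on the minus strand, inside the deposited span of the gene, which begins 134 bases before this start site. It is shown 5′ to 3′ with the elements in capitals.
ASNS: TGATGAAACttcccgcacgcGTTACA

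The element of CNC-MAF factors, the class that includes NFE2L1, was searched as TGACNNNGC. It was found in 13.3% of all windows and, among the 5 genes, in MTHFD2 alone, as TGACTGCGC on the strand opposite to the gene, starting 6 bases after the start site (chr2:74198621-74198629). A match is a run of letters in this window and describes no binding.

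PYCR1 (ENSG00000183010, chromosome 17, 81932384 to 81942412, minus strand), the mitochondrial reductase of the last proline step, rose. Control libraries had an FPKM of 23.1 and 10.3 in vehicle and 34.9 and 19.3 with bortezomib (unnumbered, then R2). In KO1 (R1, then R2) it was 18.4 and 8.36 in vehicle and 43.0 and 24.9 with bortezomib. In KO2 it was 19.8 and 10.7 in vehicle and 38.6 and 29 with bortezomib. In both KO lines the bortezomib libraries were above all vehicle libraries, and in the control line they overlapped. For PYCR1 the log2 fold change was 1.06 for the mean of the lines (limma, SE 0.32, adjusted p = 0.062 without the block, 3.8e-05 with it). By line it was 0.71 (control), 1.32 (KO1) and 1.15 (KO2), each past the threshold with the block (adjusted p 0.014, 0.0011 and 0.0019).

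ALDH18A1 (ENSG00000059573, chromosome 10, 95605929 to 95656706, minus strand), the synthase of the first proline step, went the other way. FPKM in the control line was 33.2 and 55.2 in vehicle and 25.3 and 17.8 with bortezomib (unnumbered, then R2). In KO1 (R1, then R2) it was 39.2 and 52.1 in vehicle and 36.7 and 22.8 with bortezomib. In KO2 it was 35.9 and 38.1 in vehicle and 30.9 and 18.8 with bortezomib. Every vehicle library was above both bortezomib libraries of its line. The log2 fold change was -0.73 for the mean of the lines (limma, adjusted p = 0.094 without the block and 0.0089 with it) and passed with the block in the control line (-0.98, adjusted p = 0.045). In KO1 (-0.62, adjusted p = 0.18) and KO2 (-0.60, adjusted p = 0.2) it did not.

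For ALDH18A1 the ratio of bortezomib to vehicle lay apart in the suffix classes, but the test of that difference did not pass. In R2 pairs bortezomib left 0.321 to 0.494 of the vehicle FPKM, and in the other pairs 0.762 to 0.937. That test, added after the values were seen, gave -1.01 on the log2 scale (limma, SE 0.173, adjusted p = 0.0793). It called 0.0% of tested genes (0 of 12194, with 2410 at an unadjusted p under 0.05). For the other 8 genes the same difference lay between -0.14 and 0.39, with adjusted p-values from 0.275 to 0.813.

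**Figure D3:**
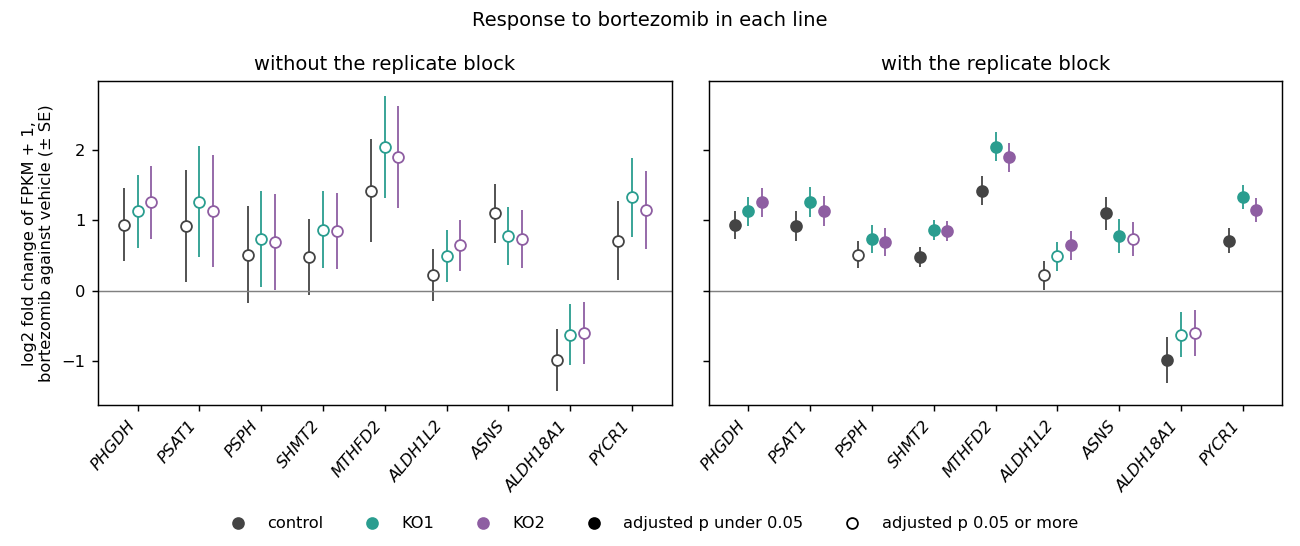
Log2 fold change of FPKM + 1 with bortezomib against vehicle for each gene and line, with the standard error, from limma without (left) and with (right) the replicate block; filled symbols have an adjusted p under 0.05. The estimates are the same on both sides, the standard errors are smaller on the right, and ALDH18A1 alone lies below 0 in all 3 lines.

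Enzymes and carriers around these steps moved in both directions. Of 23 described here, 18 were tested, and their median log2 fold change for the mean of the lines was -0.01. Without the block 3 rose. They were GOT1 (1.48, limma, adjusted p = 0.04), an aspartate aminotransferase, GLUL (0.97, adjusted p = 0.0097), the glutamine synthetase, and CBS (0.83, adjusted p = 0.014), which takes serine into transsulfuration. CBS, at group means of 0.343 to 0.636 in vehicle and 1.47 to 2.03 with bortezomib, passed the FPKM filter only through the bortezomib libraries, so its call supports nothing. GLDC of the glycine cleavage system fell (-1.03, adjusted p = 0.014). Of all tested genes 11.6% were called by that fit. With the block 4 rose and 4 fell, a smaller share than the 54.9% of all genes, and SLC19A1, the reduced folate carrier, was among those that fell (-0.76, adjusted p = 9.8e-05).

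Of 12 listed regulators of the response, limma called 3 higher without the block (11.6% of all tested genes called), and 8 higher and 1 lower with it (54.9%). ATF4 itself was at an FPKM of 47.7 to 107 in vehicle and 86.2 to 158 with bortezomib, a log2 fold change of 0.74 (limma, adjusted p = 0.00019 with the block, 0.21 without). CEBPG, a partner of ATF4, rose by 1.49 (adjusted p = 0.022 without the block), DDIT3 by 2.73 (0.00026) and TRIB3 by 2.57 (0.0036). With the block CEBPB (1.04, adjusted p = 0.00035) and MYC (0.76, adjusted p = 0.00024) also rose, and ATF5 fell (-0.40, adjusted p = 0.017). Of 7 ATF4 targets of the stress response, 5 rose without the block and 6 with it, against the same shares of all genes. ATF3 (3.52), SESN2 (3.53), PPP1R15A (2.90), CHAC1 (2.39) and DDIT4 (2.06) rose in both fits, VLDLR (0.37) rose with the block, and SLC7A11 was at 0.10 (adjusted p = 0.49 with the block). ATF3, at group means of 0.468 to 0.601 in vehicle and 8.26 to 24.2 with bortezomib, passed the FPKM filter only through the bortezomib libraries, and so had to differ. The median of the 7, ATF3 included, was 2.39.

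**Figure D4:**
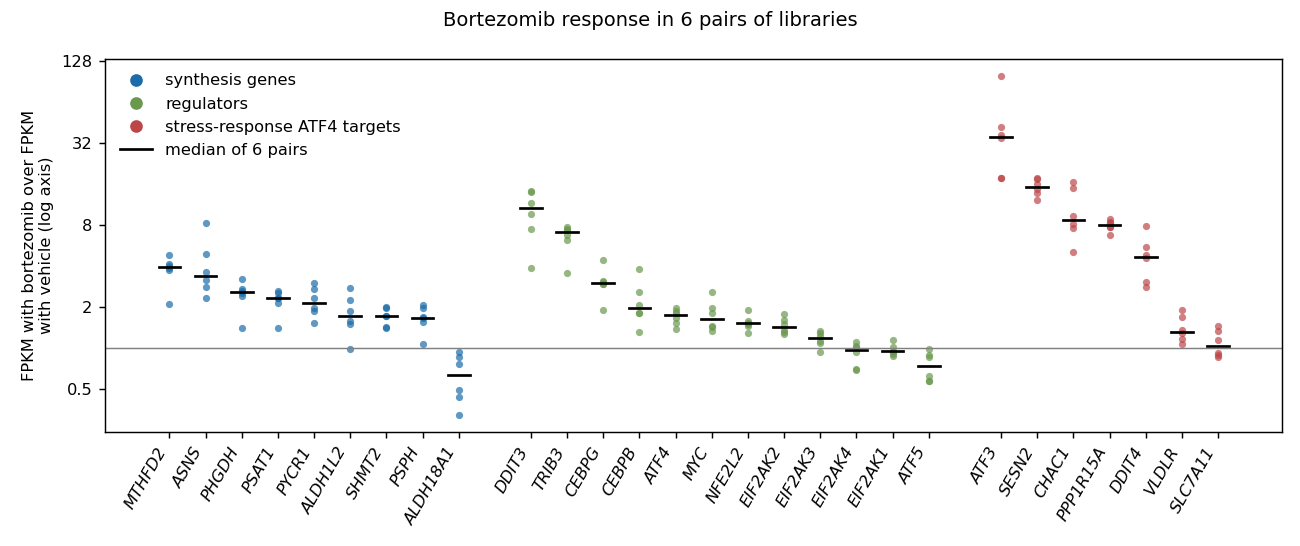
Ratio of bortezomib to vehicle FPKM (log axis) in 6 pairs of libraries of 1 line and suffix class for the synthesis genes (blue), listed regulators (green) and stress-response ATF4 targets (red); each point is 1 pair and the bar is the median. Medians of the synthesis genes run from 0.628 (ALDH18A1) to 3.93 (MTHFD2), and that of ATF3 is 35.6.

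Ranked by the mean of the 9 genes' standardised levels over the 12 libraries, each centred on its suffix class, the tested genes most like it among 12185 others were UFM1 (r = 0.99), SAT1, BOD1, NECAB2 and LARP6 (r = 0.98 each). UFM1 encodes a ubiquitin-like modifier and SAT1 a polyamine acetyltransferase. Among the 9 genes, r with the mean of the other 8 was 0.98 for PHGDH, 0.97 for MTHFD2, 0.94 for PYCR1 and PSAT1, 0.93 for PSPH, 0.89 for ASNS, 0.81 for ALDH1L2, 0.63 for SHMT2 and -0.84 for ALDH18A1. SHMT2 and ALDH18A1 therefore followed the common pattern least. These are descriptions over libraries that share lines and treatments.

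**Figure D5:**
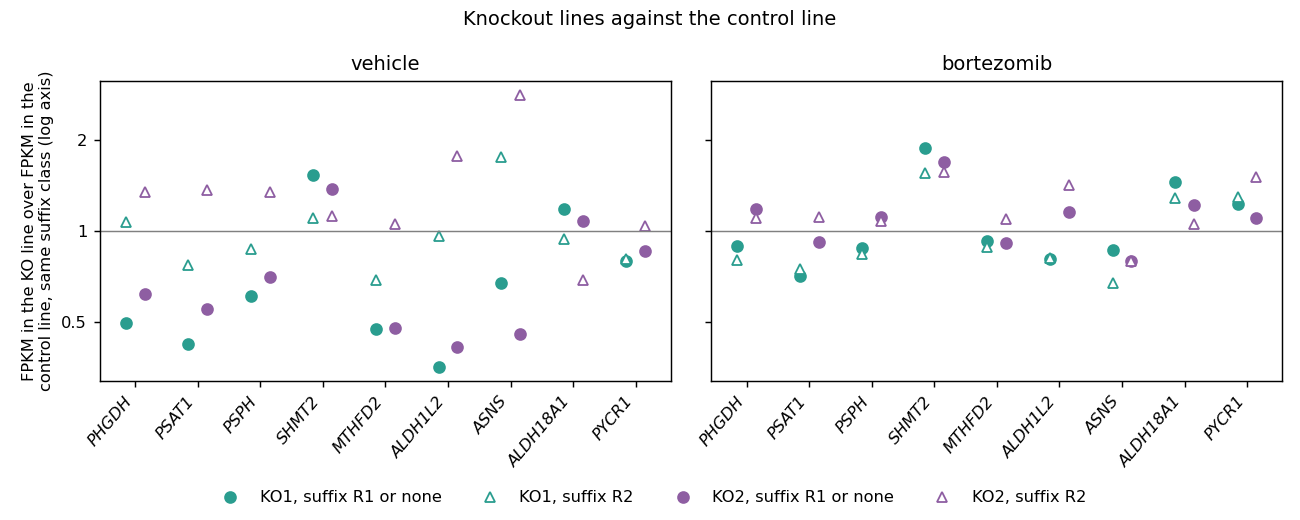
FPKM of each gene in a KO line divided by that in the control line of the same suffix class (log axis), in vehicle (left) and with bortezomib (right); circles are R1 over unnumbered and open triangles R2 over R2. SHMT2 lies above 1 in all 8 comparisons, in which KO1 and KO2 share each control library, and the serine enzymes lie on both sides of 1.

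Knockout of NFE2L1 was compared with the control line in each treatment. In vehicle, limma called 0 of the 9 genes for KO1, KO2, their mean, and KO1 against KO2, with and without the block. At an unadjusted p under 0.05 the count was 0 in each, except 1 for KO1 against KO2 with the block. Of all 12194 tested genes 538 (KO1), 433 (KO2), 561 (their mean) and 286 (KO1 against KO2) passed that level without the block. With the block 2646, 2328, 2644 and 1765 passed it. Voom without the block called 0 of the 9 for the mean of the KO lines, and 18 of all genes higher and 23 lower. The background of adjusted limma calls without the block was 0.213% of genes for KO1, 0.23% for KO2, 0.344% for their mean and 0.0656% for KO1 against KO2. With the block it was 5.95%, 4.91%, 6.18% and 3.0%. The median log2 fold change of the 9 genes for the mean of the KO lines was -0.24 without the block and -0.08 with it. In the R1 libraries 6 of the genes (PHGDH, PSAT1, PSPH, MTHFD2, ALDH1L2 and ASNS) were at 0.355 to 0.703 times the unnumbered control library in both KO lines, while in R2 libraries the same genes were at 0.689 to 2.82 times. The unnumbered vehicle library was the higher of the 2 control vehicle libraries for 8 of the 9 genes, and these comparisons rest on it.

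With bortezomib, the FPKM of SHMT2 in the KO lines was 1.56 to 1.88 times the control level in 4 of 4 comparisons. KO1 and KO2 are divided by the same control libraries, so the 4 comparisons are not independent. The share of all genes on 1 side in 4 of 4 was not counted. In vehicle it was 1.10 to 1.53 times, also in 4 of 4. With the block SHMT2 was the 1 of 9 genes called for the mean of the KO lines with bortezomib (log2 fold change 0.58, limma, SE 0.15, adjusted p = 0.0497), where 7.66% of genes were called. A count of 1 of 9 does not stand out from that share, and KO against control rests mainly on R2 in that fit. Without the block it was 0 of 9 (SHMT2 0.72, adjusted p = 1) at a background of 0.164%. At an unadjusted p under 0.05 it was also 0 of 9, where 697 of 12194 genes passed. Voom without the block called 0 of the 9, and 7 of all genes higher and 12 lower. ALDH18A1 (1.06 to 1.45 times) and PYCR1 (1.11 to 1.5 times) were also higher in 4 of 4 comparisons with bortezomib, and ASNS was lower (0.674 to 0.869 times), none of them past the threshold.

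A difference in bortezomib response with and without NFE2L1 was tested by the interaction. It called 0.0% of tested genes in limma without the block and 0.0% with it, and 0 of the 9 genes in both. Limma voom without the block called 0 genes, and voom with the block called 39 genes higher and 74 lower (0.927% of tested genes), none of the 9 among them. At an unadjusted p under 0.05 limma counted 0 of the 9 without the block, where 115 of 12194 genes passed. With the block it was 1 of the 9, where 1305 of 12194 passed, so that count does not stand out. The estimates were above 0 for 8 of the 9 genes, from 0.20 for PSPH to 0.55 for MTHFD2 (SE 0.25 with the block, adjusted p = 0.48) and 0.52 for PYCR1 (SE 0.21, adjusted p = 0.41). ASNS was at -0.34 (SE 0.29, adjusted p = 0.74). Without the unnumbered control vehicle library 2 of the 9 estimates were above 0, and their median went from 0.35 to -0.36. A different response of the KO lines' mean is therefore not shown for any of the 9, and an equal one is not shown either. Neither KO line alone was tested against the control line's response, nor KO1 against KO2.

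Whether other reads entered these values can be checked only in part from the deposited table. The 16 listed pseudogenes of PSAT1, PSPH, MTHFD2 and ASNS had a highest FPKM of 0.276 (PSPHP1). These low values do not show where reads that match both a gene and its pseudogene were placed. Reads left out because they fell in exons of more than 1 gene cannot be seen in that table. Exons of PHGDH, PSAT1, PSPH and ALDH18A1 overlap no other gene's exons in GENCODE release 29. SHMT2 shares 9.51%, ALDH1L2 1.7% and PYCR1 29.7% (14.1% on the same strand) of exon bases with neighbours. Of these, C12orf45, which overlaps ALDH1L2 on the opposite strand, had a mean FPKM of 22.8. Its part in the ALDH1L2 values was not tested.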

How the data were processed

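The values are FPKM that the authors deposited, 1 column per library, with a length per gene. The submitters' processing notes name CASAVA, STAR 2.5, HTSeq 0.6.1, DESeq2 and hg19, without roles; the annotation release and the strand setting are not given in the sources used here. The deposited gene positions are those of GRCh38: all 58676 gene IDs are in GENCODE release 29 and 95.3% have the same position there, and coordinates are given as deposited (PHGDH starts elsewhere in that release). FPKM times length gave whole reads, within 0.05 of a read, for 100% of values, which gave the depth of 13211608 to 23819258 reads per library.

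Groups came from the labels. limma 3.58.1 in R 4.3.3 was fitted to log2(FPKM + 1) over all 12 libraries with 1 mean per group, for the 12194 genes (20.8%) whose FPKM averaged 1 or more. Fold changes on this scale understate the change of low genes. A gene was called at a Benjamini-Hochberg adjusted p under 0.05. Libraries of the same suffix deviated together (r of the deviations across genes 0.696 to 0.89, median 0.811, over 15 pairs of groups), so a fit with the suffix (R1, R2, none) as a block is given as well. Only KO groups have R1 libraries and only control groups have unnumbered ones, so KO against control rests mainly on R2 in that fit. Alternatives were another pseudocount, no filter, 3 other scalings, voom on the recovered reads, blocks, and each library left out. The fits were tested on simulated data.

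The 9 genes and the lists set beside them were chosen with earlier results of these data known. Named were the 9 genes, NFE2L1, the paralogues, and of each other list up to the 6 called genes with the largest change, plus ATF5 and SLC7A11, named after their values were seen. Of the lists, 2 genes are not reported here. Genes most alike were ranked by Pearson's r. The test of the suffix classes, the paralogue ratios and the motifs TGACNNNGC and GTTACA were added after seeing the data. Promoter sequences are from RefSeq, where PSPH, SHMT2, ALDH1L2 and PYCR1 are not in the table. Python 3.11.15, numpy 2.4.6 and pandas 2.3.3 were used.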

Additional observations from a re-analysis of the deposited data

How the results depend on the processing

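For the bortezomib contrasts, no log2 fold change of the 9 genes changed direction in 324 refits with another pseudocount, filter, scaling, tool or block, while 4 of 432 with a library left out and 1 of 72 values from a single suffix class did. The number of the 9 genes called depended on the settings. For the mean of the lines it was 3 without the block, 0 with no filter on low values, 1 after rescaling to a common sum, and 9 with the replicate block, when that block put unnumbered libraries with R1, and with voom and the block; with each library left out in turn it was 0 to 2. Without the filter more genes are tested. The cause of the other differences was not tested. In each of the control line, KO1 and KO2 it was 0 without the block, 7 with either block and 8 with voom and the block. For the mean of the KO lines against the control line with bortezomib it was 0 without the block, where 9 of 12194 genes were called higher and 11 lower. It was 1 with the replicate block (476 and 458), with unnumbered libraries as R1 (811 and 739), and with voom and the block (788 and 729).

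Reversed values were all below the threshold. For the mean of the KO lines with bortezomib, the replicate block turned PHGDH to 0.19 (0.21 with voom and the block), PSAT1 to 0.10 (0.10), PSPH to 0.12 (0.13) and MTHFD2 to 0.16 (0.16), and quantile normalization turned ALDH1L2 to -0.000565 and, in vehicle, ALDH18A1 to 0.0234. With 1 library left out, KO against control in vehicle ranged from -1.03 to 0.48 for PHGDH, -1.53 to 0.53 for PSAT1, -1.10 to 0.62 for PSPH, -1.52 to 0.29 for MTHFD2, -0.83 to 0.19 for ALDH1L2, -0.0843 to 0.30 for ASNS, -0.42 to 0.29 for ALDH18A1 and -0.73 to 0.36 for PYCR1. With bortezomib it ranged from -0.30 to 0.26 for PHGDH, -0.80 to 0.37 for PSAT1, -0.48 to 0.40 for PSPH, -0.60 to 0.46 for MTHFD2, -0.25 to 0.29 for ALDH1L2, -0.67 to 0.20 for ASNS and -0.0734 to 0.75 for PYCR1. The interaction ranged from -0.50 to 1.01 for PHGDH, -0.75 to 1.31 for PSAT1, -0.66 to 1.06 for PSPH, -0.36 to 1.45 for MTHFD2, -0.16 to 0.86 for ALDH1L2, -0.78 to 0.10 for ASNS and -0.0192 to 1.07 for PYCR1. The bortezomib response of the control line ranged from -0.12 to 1.94 for PSAT1, -0.35 to 1.37 for PSPH and -0.29 to 0.73 for ALDH1L2. The lowest value of each of the last 3 came without the R2 control vehicle library. With 1 library left out a group holds 1 library, assumed to vary like the other groups. For KO1, KO2 and KO1 against KO2 in vehicle, 14 of 297 other refits and 38 of 324 with a library left out changed direction, and 0 of the 9 genes were called in any. ASNS, at 18 to 90 reads per vehicle library, is the gene most limited by depth.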
